A study of Sus scrofa with 9 samples.

Results

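Serine, one-carbon and asparagine synthesis was followed in left ventricles of young pigs through the transcripts of 10 genes. They were chosen by name, as enzymes of these pathways, and each was found as 1 row among the 22629 rows of the abundance table (PHGDH, PSAT1, PSPH, SHMT1, SHMT2, MTHFD1, MTHFD2, MTHFD1L, ALDH1L2 and ASNS). The tissue was left ventricular myocardium of wild type, untreated pigs at postnatal day 0, day 7 and day 15, with 3 RNA sequencing libraries at each age and 9 in all. Libraries are called by age and by the replicate number of their labels (newborn 4, 5 and 6, day 7 replicates 2, 5 and 6, day 15 replicates 1, 2 and 6). Whether each library came from its own animal is not stated in the labels, and the p-values therefore rest on a spread between libraries that may be technical. All 10 genes passed the filter on low values and were among the 12268 genes tested.

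Cells make serine from the glycolytic intermediate 3-phosphoglycerate in a short chain of reactions run by PHGDH, PSAT1 and PSPH. The hydroxymethyltransferases SHMT1, in the cytosol, and SHMT2, in mitochondria, then move a carbon unit from serine to tetrahydrofolate and leave glycine. MTHFD1 in the cytosol and MTHFD2, MTHFD1L and ALDH1L2 in mitochondria interconvert or oxidise the folate-bound carbon, which is used for purines, thymidylate, methionine and, in mitochondria, for formate and NADPH. ASNS makes asparagine from aspartate with glutamine as the nitrogen donor. ASNS and several of the serine and mitochondrial folate enzymes are known targets of ATF4, the transcription factor of the amino acid response.

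Values are transcript abundances in TPM (a share of all transcripts in a library), which are scaled for transcript length, so levels of different genes can be compared. TPM keeps no record of sequencing depth, and the depth of each library is unknown. The number of genes at 1 TPM or above ranged from 11290 to 12164 per library. One unnamed gene took between 24.0% of all TPM in newborn replicate 6 and 46.0% in day 15 replicate 1, and its share lowers every other value of a library. The cardiomyocyte markers summed to 49300 to 58900 TPM at day 0, 37600 to 47200 TPM at day 7 and 36100 to 47500 TPM at day 15. Every newborn sum thus lay above every later one. ACTC1, 1 of the 8 markers, had a mean of 14000 TPM at day 0, 6280 TPM at day 7 and 4370 TPM at day 15. In whole tissue, fewer cells of a type and less RNA per cell cannot be told apart.

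Most of the pathway was lower at 2 weeks than at birth. Between day 0 and day 15, 8 of the 10 genes fell, 1 rose (ALDH1L2) and 1 did not pass the test (PSPH), at a limma adjusted p under 0.05 over all genes tested. Of all genes tested, 18.4% fell, 5.53% rose and 23.9% passed in either direction. The number of the 10 genes that passed was 3 without newborn replicate 6, 5 without day 15 replicate 6 and 6 or more without any other library. Of the 12268 genes tested 2933 passed. The number was 816 without newborn replicate 6, and between 816 and 3266 when each library was left out in turn. The median log2 fold change was -0.81 over the 10 genes and -0.19 over all genes tested. Each of the 8 genes that fell had all its day 15 libraries below all its newborn libraries, where 30.5% of all genes tested were lower at day 15 without overlap. Over the first week alone, ASNS fell and ALDH1L2 rose and the other 8 did not pass, against a background of 8.88% of genes that fell, 7.67% that rose and 16.6% in all. Newborn and day 7 libraries did not overlap for 5 genes that were lower at day 7 (SHMT1, SHMT2, MTHFD1, MTHFD1L and ASNS), where 23.8% of all genes were lower without overlap. Without newborn replicates 4 or 6 or day 7 replicates 5 or 6, ASNS was the 1 gene of the 10 that passed in that week. The number over all genes went from 2031 to 392 without newborn replicate 6. Over the second week 0 of the 10 passed, and 0.171% of all genes did (0.0408% up, 0.130% down). At an unadjusted limma p under 0.05, 3 of the 10 genes and 1565 of all genes differed in that week.

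**Figure D1:**
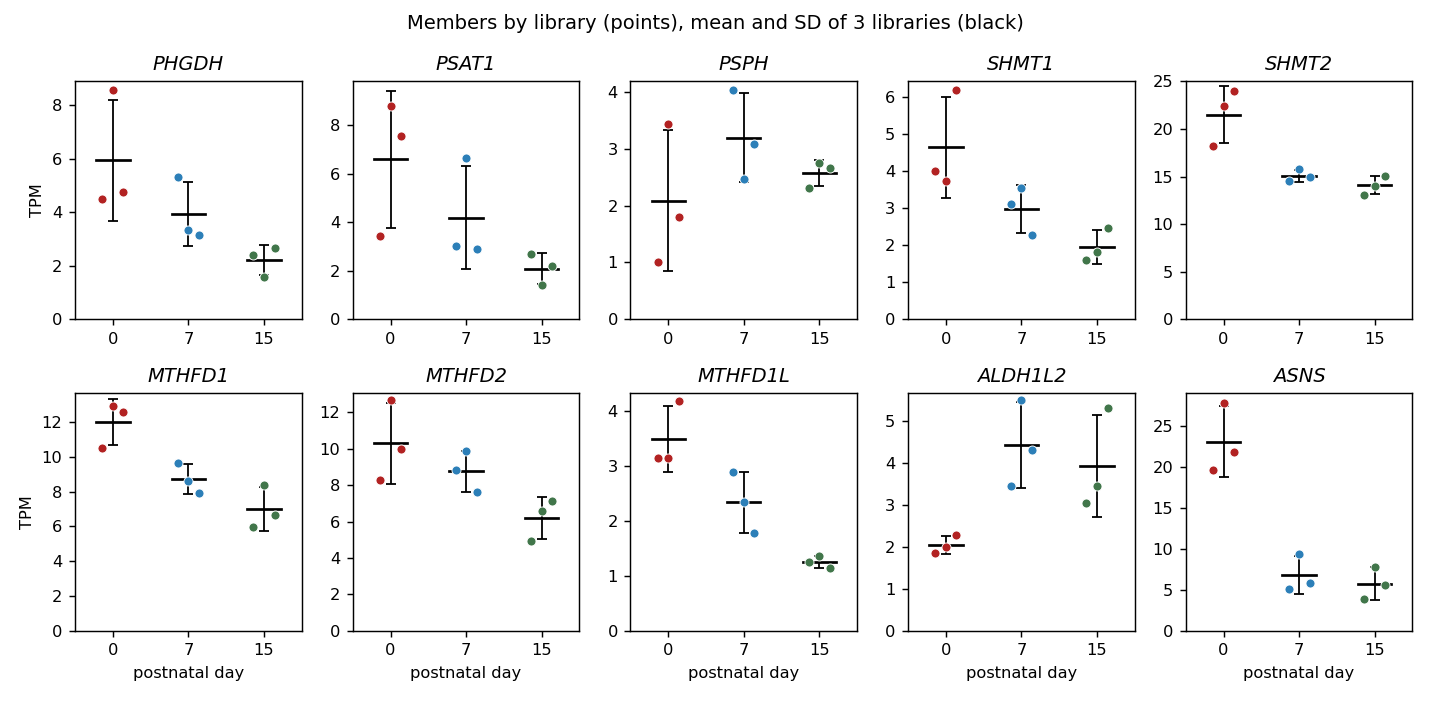
TPM of each of the 10 genes (vertical axes, each from 0) by postnatal day (horizontal axes), with 1 point per library and black bars for the mean and SD of 3 libraries. ASNS stands near 23.1 TPM at day 0 and near 6.82 and 5.74 TPM later, ALDH1L2 is lowest at day 0, and the spread of PSAT1 and PSPH between newborn libraries is wide.

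ASNS, the asparagine synthetase, had the largest change of the 10. Its abundance was 19.6, 27.9 and 21.8 TPM in newborn replicates 4, 5 and 6. At day 7 it was 5.16, 9.41 and 5.88 TPM in replicates 2, 5 and 6, and at day 15 it was 3.85, 7.82 and 5.54 TPM in replicates 1, 2 and 6. Every newborn library lay above every later one, and the later ages overlapped. The mean went from 23.1 ± 4.32 TPM (SD, n = 3 per age here and below) to 6.82 ± 2.27 TPM at day 7, which is 29.5% of the newborn level, and 5.74 ± 2.00 TPM at day 15, or 24.8%. The fall over the first week was -1.65 ± 0.26 (SE) on the log2(TPM + 1) scale (limma adjusted p = 0.00431), and 0.383% of all genes tested had a fold change as low or lower. Over the full 2 weeks it was -1.87 ± 0.26 (limma adjusted p = 0.00141). Both calls were kept in each of the 22 alternative settings, with limma adjusted p values from 0.00124 to 0.0262 for the first week. Between day 7 and day 15 its log2 difference was -0.22, with a 95% interval from -0.78 to 0.34 (limma adjusted p = 0.749).

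Of the enzymes of serine synthesis, PHGDH and PSAT1 fell over the 2 weeks and PSPH did not pass. PHGDH, which catalyses the committed step, had 4.48, 8.55 and 4.76 TPM in newborn replicates 4, 5 and 6, then 5.31, 3.35 and 3.13 TPM in day 7 replicates 2, 5 and 6. In day 15 replicates 1, 2 and 6 it had 2.38, 1.58 and 2.65 TPM. The day 7 libraries overlapped with the newborn ones and stood above all day 15 libraries. After median-of-ratios scaling days 7 and 15 overlapped, with 2.94 in day 7 replicate 5 and 3.14 in day 15 replicate 1. From 5.93 ± 2.27 TPM at day 0 the mean reached 2.20 ± 0.559 TPM at day 15, 37.2% of the newborn level, a log2 fold change of -1.08 ± 0.25 (limma adjusted p = 0.0115). This call was kept without each library in turn. Its first-week difference was -0.47, with an interval from -1.02 to 0.08 (limma adjusted p = 0.208), and its second-week difference -0.61, from -1.16 to -0.06 (limma adjusted p = 0.346).

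PSAT1, the aminotransferase of the chain, varied most between newborn libraries among the genes that fell. It had 3.42, 8.80 and 7.56 TPM in newborn replicates 4, 5 and 6 and 3.02, 6.62 and 2.91 TPM in day 7 replicates 2, 5 and 6. Day 15 replicates 1, 2 and 6 had 2.67, 1.39 and 2.19 TPM, below every earlier library. After median-of-ratios scaling day 15 replicate 1 had 3.52, above day 7 replicates 2 and 6 (2.97 and 3.03) and just below newborn replicate 4 (3.55). Newborn replicate 4 was close to the lower day 7 libraries, and day 7 replicate 5 was close to the newborn ones. The mean went from 6.59 ± 2.82 to 2.08 ± 0.647 TPM, 31.6% of the newborn level (-1.24 ± 0.33, limma adjusted p = 0.0188). Without newborn replicate 6 the difference was -1.12 and the call was lost (limma adjusted p = 0.0901), as it was with no filter on low values (limma adjusted p = 0.0589). The ratio of PSAT1 to PHGDH in a library, which does not depend on the total that TPM is scaled to, was 1.13 ± 0.421 at day 0, 1.16 ± 0.730 at day 7 and 0.943 ± 0.158 at day 15.

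PSPH, the phosphatase that releases serine, did not share the decline. It had 1.01, 3.45 and 1.81 TPM in newborn replicates 4, 5 and 6, then 4.04, 2.48 and 3.09 TPM in day 7 replicates 2, 5 and 6, and 2.31, 2.75 and 2.67 TPM in day 15 replicates 1, 2 and 6. The newborn libraries spanned both later ages, with a coefficient of variation of 59.5% against 9.10% at day 15. Its day 15 difference from day 0 was 0.29, with an interval from -0.28 to 0.85 (limma adjusted p = 0.440). The first-week difference was 0.51 (limma adjusted p = 0.191), and without newborn replicate 5 it was 0.81 and passed (limma adjusted p = 0.0269).

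The hydroxymethyltransferases both fell by day 15, and the cytosolic form fell to the smaller share of its newborn level. SHMT1 had 4.00, 3.73 and 6.21 TPM in newborn replicates 4, 5 and 6. It had 3.13, 3.56 and 2.28 TPM in day 7 replicates 2, 5 and 6, and 1.59, 1.81 and 2.46 TPM in day 15 replicates 1, 2 and 6. All newborn libraries were above all later ones, and the later ages overlapped. Its mean went from 4.65 ± 1.36 to 1.95 ± 0.453 TPM, 42.1% of the newborn level (-0.92 ± 0.22, limma adjusted p = 0.0115). Without newborn replicate 6 it was -0.73 and the call was lost (limma adjusted p = 0.0636).

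SHMT2, the mitochondrial form, was the most abundant of the folate enzymes at each age. It had 18.2, 22.4 and 24.0 TPM in newborn replicates 4, 5 and 6, then 14.5, 15.8 and 15.0 TPM in day 7 replicates 2, 5 and 6, and 13.1, 14 and 15.1 TPM in day 15 replicates 1, 2 and 6. The newborn libraries stood apart, and the later ages overlapped with a narrow spread. The mean was 21.5 ± 2.98 TPM at day 0 and 14.1 ± 0.962 TPM at day 15, 65.3% of the newborn level (-0.57 ± 0.16, limma adjusted p = 0.0261). This call was lost in 9 of 22 settings. These included median-of-ratios scaling (-0.35, limma adjusted p = 0.0514) and fits that left out newborn replicate 5 (-0.54, limma adjusted p = 0.0564), newborn replicate 6 (-0.50, 0.118), day 15 replicate 1 (-0.53, 0.0574) or day 15 replicate 6 (-0.62, 0.0692). The first-week difference of SHMT2, -0.47, just missed the threshold (limma adjusted p = 0.0653) and passed after median-of-ratios scaling (-0.42, limma adjusted p = 0.0256). The ratio of SHMT2 to SHMT1 was 4.56, 6.01 and 3.86 in the newborn libraries, 4.64, 4.45 and 6.58 at day 7, and 8.24, 7.76 and 6.11 at day 15. Every day 15 ratio was above every newborn ratio, and the day 7 ratios overlapped with both.

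In the cytosol MTHFD1, which carries several folate interconversions on 1 protein, fell over the 2 weeks. It had 10.5, 12.9 and 12.6 TPM in newborn replicates 4, 5 and 6, 9.65, 8.61 and 7.91 TPM in day 7 replicates 2, 5 and 6, and 5.97, 8.37 and 6.65 TPM in day 15 replicates 1, 2 and 6. The newborn libraries lay above all others, and day 15 replicate 2 reached into the day 7 range. The mean went from 12.0 ± 1.31 to 8.72 ± 0.872 and 7.00 ± 1.24 TPM, and the day 15 level was 58.3% of the newborn level (-0.71 ± 0.18, limma adjusted p = 0.0153). The call was lost without newborn replicate 6 (-0.67, limma adjusted p = 0.0687) or day 15 replicate 6 (-0.68, limma adjusted p = 0.0650).

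Of the mitochondrial folate enzymes, MTHFD1L and MTHFD2 fell and ALDH1L2 rose. MTHFD1L, which releases formate from the folate-bound carbon, had 3.15, 3.15 and 4.18 TPM in newborn replicates 4, 5 and 6 and 2.89, 2.34 and 1.78 TPM in day 7 replicates 2, 5 and 6. In day 15 replicates 1, 2 and 6 it had 1.25, 1.36 and 1.15 TPM. It was the one gene of the 10 whose libraries stepped down at both intervals without overlap, a pattern held by 2.62% of all genes tested. The mean went from 3.49 ± 0.594 to 2.34 ± 0.554 and 1.25 ± 0.106 TPM, 35.9% of the newborn level at day 15 (-0.99 ± 0.18, limma adjusted p = 0.00487). That call was kept in all 21 settings in which the gene was fitted, with limma adjusted p values up to 0.0369. Neither single step passed, at -0.43 (limma adjusted p = 0.119) and -0.56 (limma adjusted p = 0.255). Relative to MTHFD1 its level was 0.292 ± 0.0442 at day 0, 0.266 ± 0.0376 at day 7 and 0.181 ± 0.0246 at day 15, and every day 15 ratio lay below every earlier one.

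MTHFD2, the mitochondrial methylene-tetrahydrofolate dehydrogenase, fell over the 2 weeks, and neither week passed by itself. It had 8.31, 12.7 and 10 TPM in newborn replicates 4, 5 and 6, 8.82, 9.86 and 7.61 TPM in day 7 replicates 2, 5 and 6, and 4.92, 6.61 and 7.12 TPM in day 15 replicates 1, 2 and 6. Newborn and day 7 libraries overlapped, and all day 15 libraries lay below them. The first-week difference was -0.205, with a 95% interval from -0.64 to 0.23 (limma adjusted p = 0.493). The second-week difference was -0.44, from -0.88 to -0.01 (limma adjusted p = 0.388). The mean went from 10.3 ± 2.22 to 6.22 ± 1.15 TPM, 60.1% of the newborn level (-0.65 ± 0.20, limma adjusted p = 0.0353). This call was lost in 9 of 22 settings. Among these were fits that left out newborn replicate 5 (-0.50, limma adjusted p = 0.0985), newborn replicate 6 (-0.66, 0.105), day 7 replicate 2 (-0.65, 0.0525), day 15 replicate 1 (-0.51, 0.0975) or day 15 replicate 6 (-0.74, 0.0632). The ratio of MTHFD2 to MTHFD1 overlapped between ages, at 0.858 ± 0.111, 1.01 ± 0.122 and 0.895 ± 0.153 on days 0, 7 and 15.

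ALDH1L2, which oxidises formyl-tetrahydrofolate to carbon dioxide with NADPH as a product, moved the other way. It had 1.85, 2.00 and 2.28 TPM in newborn replicates 4, 5 and 6, then 3.45, 5.48 and 4.29 TPM in day 7 replicates 2, 5 and 6, and 3.03, 3.44 and 5.30 TPM in day 15 replicates 1, 2 and 6. All newborn libraries were below all later ones. Its mean of 2.04 ± 0.217 TPM at birth became 4.41 ± 1.02 TPM at day 7, 216% of the newborn level (0.82 ± 0.21, limma adjusted p = 0.0242), and 3.92 ± 1.21 TPM at day 15, 192% (0.67 ± 0.21, limma adjusted p = 0.0377). The first-week call was lost in 5 of 21 settings. Among these were the removal of newborn replicate 4 (0.77, limma adjusted p = 0.0840), newborn replicate 6 (0.87, 0.0739), day 7 replicate 5 (0.68, 0.0846) or day 7 replicate 6 (0.82, 0.0690). The 2-week call was lost in 9 of 21, among them on removal of newborn replicates 4, 5 or 6 (limma adjusted p = 0.102, 0.0616 and 0.0891), day 7 replicate 6 (0.0530) or day 15 replicate 6 (0.48, 0.169). After median-of-ratios scaling the 2-week difference was 0.85 (limma adjusted p = 0.00789). The ratio of ALDH1L2 to SHMT2, added after the values were seen, was 0.0952 ± 0.00600 in the newborn libraries, 0.290 ± 0.0550 at day 7 and 0.276 ± 0.0660 at day 15.

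**Figure D2:**
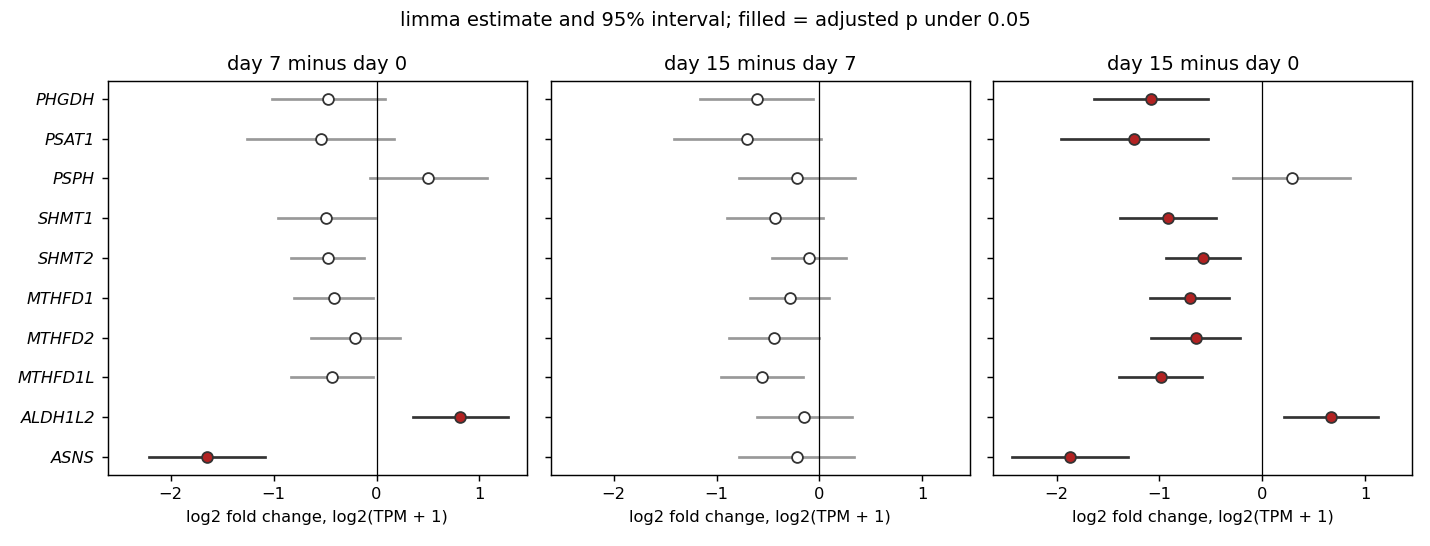
limma log2 fold changes on the log2(TPM + 1) scale (horizontal axes) of the 10 genes (rows) for the 3 comparisons of ages, with 95% intervals as lines and filled points for an adjusted p under 0.05. ASNS and ALDH1L2 are filled at day 7, no gene is filled between day 7 and day 15, and all but PSPH are filled between day 0 and day 15.

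The order of levels within the pathway changed with age. At day 0 ASNS (23.1 TPM) and SHMT2 (21.5 TPM) led and overlapped with each other, and SHMT2 stood above MTHFD1 (12.0 TPM) without overlap. From MTHFD1 down to MTHFD2, PSAT1, PHGDH, SHMT1, MTHFD1L, PSPH and ALDH1L2 (2.04 TPM) each gene overlapped with the next. At day 7 SHMT2 led alone at 15.1 TPM, and all later neighbours in the order overlapped. At day 15 SHMT2 (14.1 TPM) again led without overlap, and MTHFD1, MTHFD2, ASNS and ALDH1L2 followed, each overlapping with the next of these 4. By mean, ALDH1L2 was the lowest of the 10 at birth (2.04 TPM, with PSPH at 2.09 TPM) and the fifth highest at day 15. PSPH was nevertheless below it in newborn replicates 4 (1.01 against 1.85 TPM) and 6 (1.81 against 2.28 TPM). At day 15 ALDH1L2 stood above PSPH (2.58 TPM) without overlap. MTHFD1L (1.25 TPM) was the lowest at day 15 and lay below SHMT1 (1.95 TPM) without overlap.

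Libraries of 1 age also differed along the pathway. Newborn replicate 5 held the highest value of 5 of the 10 genes (PHGDH, PSAT1, MTHFD1, MTHFD2 and ASNS) and newborn replicate 6 that of 3. Day 15 replicate 1, the library with the largest share taken by the unnamed gene, held the lowest value of 5. Newborn replicate 4 was below its age mean for each of the 10 genes, with a median of -0.22 on the log2 scale, and day 7 replicate 6 was as well, with a median of -0.16. Newborn replicate 5 also had the highest sum of the cell division markers at that age, 168 TPM against 65.3 and 78.2 TPM in replicates 4 and 6, and the highest sum of erythroid markers, 1260 against 522 and 392 TPM. The part of these differences between libraries in the members' values was not tested.

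Whether the change was faster in the first week than in the second was tested as the first step minus the second step, which share the day 7 libraries. None of the 10 genes passed (0 of 10), where 1.92% of all genes did. At an unadjusted limma p under 0.05 there were 2 of the 10 and 2201 of all genes. The largest value was that of ASNS, at -1.43 ± 0.45 (limma adjusted p = 0.119), which passed after median-of-ratios scaling (-1.53, limma adjusted p = 0.0398) and in 2 other settings. For ALDH1L2 it was 0.96 ± 0.37 (limma adjusted p = 0.192). Among the 8 genes that fell over the 2 weeks, ASNS was the only one that passed in a single week as reported. For PHGDH, PSAT1, SHMT1, SHMT2, MTHFD1, MTHFD2 and MTHFD1L neither week passed by itself.

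Because TPM is a share of a total, the scaling was varied. Median-of-ratios scaling moved the median log2 fold change of all genes between day 0 and day 15 from -0.19 to 0.01, and the share of called genes that rose from 23.1% to 49.3%. With that scaling 15.7% of all genes fell and 15.3% rose, and of the 10 genes 7 fell and 1 rose. Their 2-week log2 fold changes were then -1.66 for ASNS, -1.04 for PSAT1, -0.89 for PHGDH, -0.83 for MTHFD1L, -0.74 for SHMT1, -0.49 for MTHFD1, -0.44 for MTHFD2 and -0.35 for SHMT2, which was the one call lost. For the first week the same scaling gave 3 genes that fell (ASNS, SHMT2 and MTHFD1) and 1 that rose, where 16.0% of all genes fell and 14.9% rose. With the total taken without mitochondrial genes and the top 20 genes by abundance, the share of called genes that rose in the first week went from 46.3% to 65.6%. With that total 1 of the 10 genes fell and 1 rose, where 10.1% of all genes fell and 19.2% rose. No call of the 10 genes changed direction under the 4 scalings tried.

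**Figure D3:**
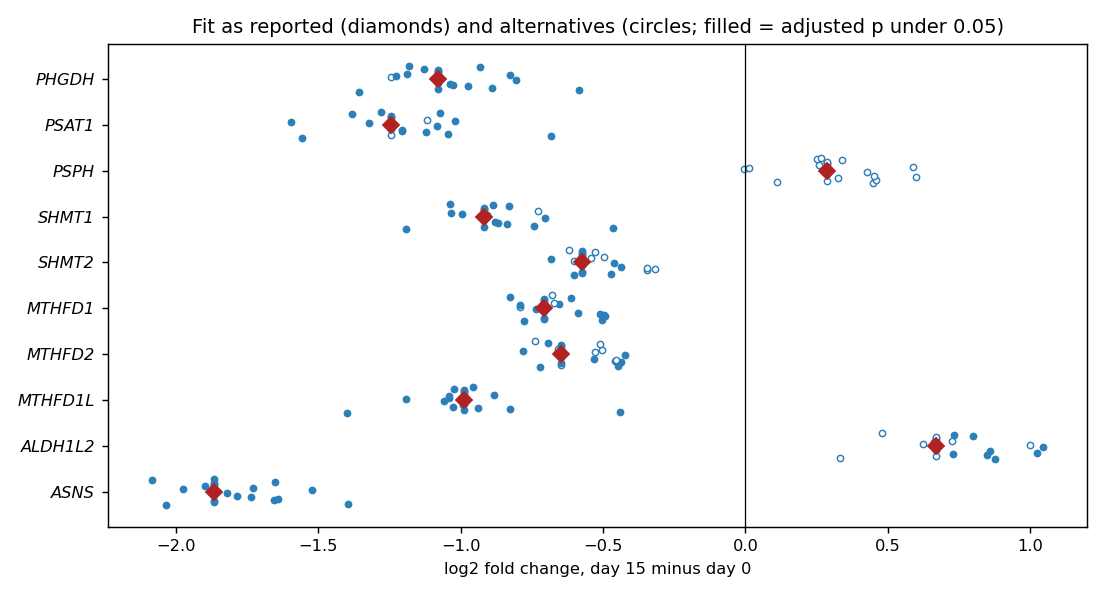
log2 fold change between day 0 and day 15 (horizontal axis) of each of the 10 genes (rows), as reported (diamonds) and under each alternative setting (circles, filled where the adjusted p was under 0.05). All circles of ASNS and MTHFD1L are filled and negative, open circles are most frequent for SHMT2, MTHFD2 and ALDH1L2 among the called genes, and PSPH has no filled circle.

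Regulators and other targets of the amino acid response were also lower after birth. Of 22 such genes tested, 17 fell and 0 rose over the first week, with a median log2 fold change of -1.51. Over the 2 weeks 18 fell and 0 rose, with a median of -1.60. Of all genes tested, 8.88% fell in the first week and 18.4% fell over the 2 weeks. The list was chosen with earlier results of these data known, so its direction is not independent support. The transcription factor ATF4 had 428, 364 and 488 TPM in the newborn libraries and between 89.3 and 122 TPM in the 6 later ones. Its first-week log2 fold change was -1.97 (limma adjusted p = 3.58e-04). TRIB3, a pseudokinase induced in this response, had 45.2 ± 12.9 TPM at birth and 2.02 ± 0.717 TPM at day 7 (-3.92, limma adjusted p = 7.37e-05). DDIT3, the factor CHOP, changed by -3.35. CHAC1, a glutathione-degrading enzyme, had 5.09 ± 0.984 TPM and then 0.142 ± 0.0314 TPM (-2.40, limma adjusted p = 4.56e-05), and ATF5 changed by -2.61 (limma adjusted p = 3.25e-04). These 5 calls were kept in all settings in which the genes were fitted. When each library was left out in turn, between 11 (without newborn replicate 6) and 17 of the 22 fell in the first week and between 13 (without newborn replicate 6) and 20 over the 2 weeks. ATF4 stayed the most abundant of the list at day 7, with 109 ± 16.9 TPM. Within the response ASNS, at -1.65 in the first week, was near the median of the list, while PHGDH (-0.47), PSAT1 (-0.54) and MTHFD2 (-0.20) did not pass in that week.

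Carriers and neighbouring enzymes of the same amino acids mostly did not pass, with a few large falls. Among all genes tested, 8.88% fell and 7.67% rose in the first week, and 18.4% fell and 5.53% rose over the 2 weeks. Counts of 1 or 2 in these short lists are not read as results about a list. Of 8 serine, glycine and asparagine carriers tested, 1 rose and 1 fell in the first week (median -0.10), and 0 rose and 2 fell over the 2 weeks (median -0.35). The number that fell over the 2 weeks was 1 without newborn replicate 6 or day 15 replicate 6. SLC1A4, a neutral amino acid carrier that takes serine, had 25.5, 18.5 and 31.6 TPM at birth and between 2.30 and 5.42 TPM in the later libraries (-2.56 in the first week, limma adjusted p = 4.92e-04). The mitochondrial carrier SFXN3 rose by 1.04 (limma adjusted p = 0.0245), a call lost in 7 settings, among them those without newborn replicates 4 or 6 or day 7 replicates 2 or 6. SLC38A2, the most abundant carrier, had 56.4 ± 10.3 and 40.9 ± 13.3 TPM (limma adjusted p = 0.357). Of 8 genes around asparagine and aspartate, 2 fell in the first week. These were the asparaginyl-tRNA synthetase NARS, from 80.7 ± 22.3 to 26.3 ± 3.34 TPM (-1.56, limma adjusted p = 0.00297), and the aspartate-glutamate carrier SLC25A12 (-0.59, limma adjusted p = 0.0319, lost in 7 settings, those without newborn replicates 4 or 6, any 1 of the day 7 replicates or day 15 replicate 6 among them). The aspartate aminotransferase GOT2, the most abundant of them, had 403 ± 24.6 and 339 ± 49.4 TPM (limma adjusted p = 0.295). In proline synthesis 1 of 4 genes fell, PYCR1, from 26.0 ± 4.73 TPM at birth to 9.81 ± 2.17 and then 5.24 ± 1.62 TPM (-1.32 in the first week, limma adjusted p = 0.00573).

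The other folate genes showed no shared direction. Of 12 tested, 1 rose and 1 fell in each of the first-week and 2-week comparisons, with medians of 0.16 and 0.09. The shares over all genes tested were 8.88% down and 7.67% up, and 18.4% down and 5.53% up, in the same 2 comparisons. Thymidylate synthase, TYMS, the gene that rose and also a member of the purine and thymidylate list, which takes its methyl group from folate, had 1.03, 6.21 and 1.73 TPM in newborn replicates 4, 5 and 6. It had between 13.9 and 28.8 TPM at day 7 and between 9.13 and 14.1 TPM at day 15 (2.72 in the first week, limma adjusted p = 0.00326). FPGS, which adds glutamates to folate, had a mean of 15.7 ± 4.57 TPM at birth and 8.62 ± 1.35 TPM at day 7, and it fell (-0.77, limma adjusted p = 0.0438). That call was lost in 8 settings, among them those without newborn replicates 4 or 6, any 1 of the day 7 replicates or day 15 replicate 6. The folate receptor FOLR1, the most abundant, had 50.4 ± 8.17 and 49.8 ± 13.9 TPM (limma adjusted p = 0.938). The purine enzymes that take folate carbon, GART and ATIC, both fell over the 2 weeks, with log2 fold changes of -1.12 (limma adjusted p = 0.00308) and -0.72 (limma adjusted p = 0.0163, lost without newborn replicate 6 or day 15 replicate 6).

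**Figure D4:**
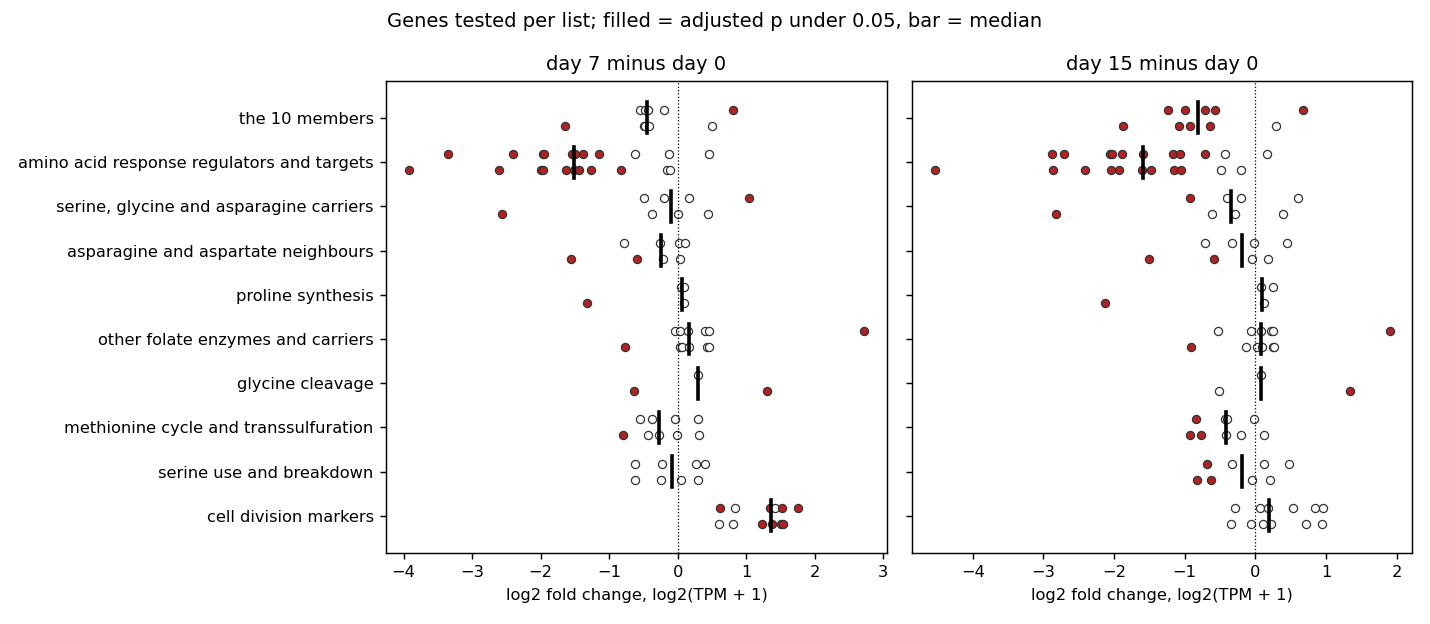
log2 fold changes on the log2(TPM + 1) scale (horizontal axes) of the genes tested in each list (rows), for day 7 minus day 0 and day 15 minus day 0, with 1 point per gene, filled where the adjusted p was under 0.05, and a bar at the list's median. The amino acid response list is centred at -1.51 and -1.60, the cell division markers at 1.37 and 0.20, and the 10 genes at -0.45 and -0.81.

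The next counts stand beside 8.88% of all genes that fell and 7.67% that rose in the first week. Over the 2 weeks these shares were 18.4% and 5.53%. Of the glycine cleavage system, 1 of 3 genes rose and 1 fell in the first week. AMT, its aminomethyltransferase, had 0.639 ± 0.823 TPM at birth and 2.76 ± 0.462 TPM at day 7 (1.30, limma adjusted p = 0.0122). Removal of newborn replicate 4 or 6 ended that call. The shared dehydrogenase DLD, which also serves other complexes, had 144 ± 23.2 TPM and then 91.9 ± 2.33 TPM (-0.63, limma adjusted p = 0.0360). Its call did not hold in 8 settings (those without newborn replicates 4 or 6, any 1 of the day 7 replicates or day 15 replicate 6 among them). GLDC, the glycine decarboxylase, had 0.763 ± 0.474 and 1.11 ± 0.0905 TPM (limma adjusted p = 0.343). Of 9 methionine cycle and transsulfuration genes, 0 rose in either comparison, 1 fell in the first week and 3 fell over the 2 weeks (1 without newborn replicate 4 or 6). GNMT, the glycine methyltransferase, had 2.59 ± 0.124 TPM at birth and 1.08 ± 0.207 TPM at day 7 (-0.79, limma adjusted p = 0.0108), a call that ended on removal of newborn replicate 6. MAT2A, which makes the methyl donor S-adenosylmethionine, had 135 ± 25.6 TPM at birth and 78.9 ± 13.9 TPM at day 15 (-0.77, limma adjusted p = 0.0189). That call was lost without newborn replicates 4 or 6 or day 15 replicates 1 or 6. Of 8 genes of serine use and breakdown, 0 passed in the first week and 3 fell over the 2 weeks, with PTDSS1, a phosphatidylserine synthase, the most abundant (216 ± 23.9 and 123 ± 28.3 TPM, limma adjusted p = 0.0221). That call was lost without newborn replicate 6 or day 15 replicates 1 or 6, and without any 1 of these libraries 0 genes of the list passed.

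Markers of cell division and of cell types are given beside these results. Among all genes tested, 7.67% rose and 8.88% fell in the first week, and 5.53% rose and 18.4% fell over the 2 weeks. Counts of 1 or 2 in a marker list are not read as results about a cell type. Of 12 cell division markers, 8 rose and 0 fell in the first week (median 1.37) and 0 passed over the 2 weeks (median 0.20). Their summed level was 65.3 to 168 TPM at day 0, 180 to 256 TPM at day 7 and 91.3 to 129 TPM at day 15. When each library was left out in turn the number that rose in the first week was between 1, without newborn replicate 6, and 12, without newborn replicate 5. The number was 3 on removal of newborn replicate 4 and 5 on removal of day 7 replicate 2. Over the 2 weeks, removal of newborn replicate 5 gave 5 that rose and a median of 0.63, and removal of newborn replicate 4 gave 0 and a median of -0.12. Of the 10 synthesis and folate genes only ALDH1L2 rose in that week, and ALDH1L2 stayed at 3.92 TPM at day 15. Over the 2 weeks 5 of 8 markers of pericytes and smooth muscle fell and 1 rose (0 rose without any 1 of the newborn replicates or day 15 replicate 6), and their sum was 478 to 692 TPM at day 0, 348 to 453 TPM at day 7 and 294 to 315 TPM at day 15. In the first week 2 of 8 markers of endothelium rose and 1 fell, and their sum was 213 to 250 TPM at day 0, 319 to 349 TPM at day 7 and 199 to 239 TPM at day 15. Of 8 fibroblast markers, 2 rose and 0 fell in that week, with sums of 928 to 1440 TPM, then 1620 to 2230 TPM, and 1160 to 1480 TPM at day 15. The endothelial, fibroblast and cell division sums were thus higher at day 7 than at day 0 without overlap. Lower without overlap in the same week were the sums of pericyte and smooth muscle, cardiomyocyte, and glial and nerve markers. The glial and nerve sum was low throughout, at 6.83 to 15.7 TPM at day 0 and 0.253 to 4.96 TPM at day 7. ASNS fell and ALDH1L2 rose in that week. Both fibroblast calls of that week were lost without newborn replicates 4 or 6 or day 7 replicates 5 or 6. The endothelial rise of PECAM1 and fall of EMCN were lost without newborn replicates 4 or 6 or day 7 replicates 2 or 6. Over the 2 weeks 0 endothelial markers rose and 1 fell (lost in 10 of 22 settings), and 0 of the fibroblast markers passed. Of 8 macrophage markers 2 rose over the 2 weeks, and neither call held without day 15 replicate 2, whose macrophage sum was 274 TPM against 62.1 and 104 TPM in the other day 15 libraries. These calls were also lost without newborn replicates 4 or 6 or day 15 replicate 6. Over the same interval 1 of 3 erythroid markers rose and 0 fell, and of 8 cardiomyocyte markers 1 rose and 1 fell. No marker matched in these lists was at 0 in every library. The part of these cell types in the falls of PHGDH, PSAT1 and the other genes was not tested.

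The genes closest in pattern were taken for ASNS, MTHFD2 and PHGDH by the root mean square distance between centred log2(TPM + 1) values over the 9 libraries, as a description. For ASNS the 5 closest of 6701 genes were HMOX1, PDLIM3, HERPUD1, TARS and CEBPG, at distances from 0.22 to 0.28, where the median gene was at 0.80. HMOX1, the heme oxygenase, went from 14.3 ± 2.24 to 4.09 ± 1.75 and 2.52 ± 0.892 TPM. TARS, the threonyl-tRNA synthetase, went from 20.5 ± 2.62 to 6.96 ± 0.544 and 6.46 ± 1.64 TPM, and the transcription factor CEBPG from 16.2 ± 2.93 to 4.85 ± 0.764 and 4.78 ± 1.37 TPM. For MTHFD2 the closest were CCAR1, SEC24D, SMU1, NET1 and SND1, at 0.08 to 0.11, with the median gene at 0.33. Close to PHGDH were ACTA2, CCL21, TUBB4B and PGF, at 0.21 to 0.24, with the median gene at 0.53.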

How the data were processed

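Left ventricular RNA of 9 libraries was analysed from 1 table that the authors deposited, in TPM. Per the submitters' processing notes, Trimmomatic 0.33, HISAT2 2.0.5 and kallisto 0.43.1 were used, with no role or order named. The library kit was a stranded mRNA kit, per the labels' protocols. Build, annotation and handling of reads shared by similar genes: not given in the sources used here. No coordinates are printed.

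Genes with at least 1 TPM in at least 3 libraries were tested (12268 of 22629 rows). The model had a mean for each age, on log2(TPM + 1) values (pseudocount 1 TPM), in limma 3.58.1 in R 4.3.3 (mean-variance trend, 6 residual degrees of freedom), and p-values were adjusted by Benjamini-Hochberg over all genes tested with a threshold of 0.05. Fold changes on this scale understate those of low genes. The limma step was tested on simulated data.

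The members and gene lists were chosen with earlier results of these data known. Of 169 other listed genes, 156 were matched in the table, 8 of them through an Ensembl identifier, and unmatched ones are not analysed here. Some results are not reported here. All members are named. Of each other list the up to 4 genes with the smallest adjusted p in the first week and the most abundant one could be named, together with ATF4, DDIT3, TRIB3 and TYMS, and the text gives part of these. Alternatives were 13 changes of pseudocount, filter, scaling, variance model, weights, samples fitted or replicate block, and leaving out each of the 9 libraries. Promoter and protein comparisons that had been planned were not run, as no sequence table was used here.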

Additional observations from a re-analysis of the deposited data

Results flagged for a closer look

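No synthesis or folate gene of the 10 differed between the first and the second week by the test of that difference. Of the genes in the pathway and response lists beside them, 10 did, as the first-week log2 fold change minus the second-week one (limma adjusted p under 0.05, with the day 7 libraries shared by both weeks). Of all genes tested 1.92% did. The value was positive for TYMS, at 3.53, which rose in the first week. This call was lost in 7 of 21 settings, those without newborn replicates 4 or 6 or any 1 of the day 7 replicates among them. It was negative for genes that fell in the first week, at -2.30 for SLC1A4, -1.89 for ATF4, -2.34 for ATF5, -3.83 for DDIT3, -3.30 for TRIB3, -2.39 for CHAC1, -1.73 for SESN2, -1.96 for FGF21 and -1.87 for SLC3A2. The SLC1A4 call was lost in 7 of 21 settings, those without newborn replicates 4 or 6, day 7 replicates 5 or 6 or day 15 replicate 6 among them. SESN2, FGF21 and SLC3A2 are named for this value, after it was seen. Of the 22 amino acid response genes 8 passed, between 0 (without day 7 replicate 6) and 9 when each library was left out. Of all 12268 genes tested 236 passed, between 3 (without day 7 replicate 6) and 734 (without newborn replicate 5). For the amino acid response genes, further counts were as follows. The count was 2 without newborn replicate 4 or 6, 1 without day 7 replicate 2, 4 without day 7 replicate 5 and 5 without day 15 replicate 6. The cause of these differences was not tested.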

How the results depend on the processing

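TPM keeps no depth, so no counting error can be given, and 3 libraries per age limit the precision. No called value of the 10 genes changed direction in any setting run. Of the alternatives for the 10 genes, 767 kept direction and call, 40 lost the call, 13 gained it and 26 changed sign, all of values that were not called. The number of the 10 genes called in the first week (2 as reported) was 1 with no filter, 1 with a mean of at least 5 TPM (4 of the genes fitted), 4 with median-of-ratios scaling, 5 with quantile normalization and 1 to 3 without 1 library. In that week 16.6% of all genes were called as reported, 30.9% with median-of-ratios scaling and 29.0% with quantile normalization. Without 1 library, 392 to 2688 of all genes were called. Over the second week the number of the 10 genes (0 as reported) was 2 with library weights, whose estimation stopped before converging. That setting called 3095 of the 12268 genes tested. Over both weeks the number of the 10 (9 as reported) was 4 with a mean of at least 5 TPM. Without 1 library it was 3 to 9, where 816 to 3266 of all genes were called. For the first step minus the second (0) it was 1 with median-of-ratios scaling, 1 with quantile normalization and 1 with library weights. Fewer genes tested accounts for the counts at 5 TPM, and the cause of the others was not tested.

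Replicate numbers are shared by some ages. The labels do not state that they mark a shared litter or day, so the numbers were not taken as pairs. Deviations of same-numbered libraries from their age means correlated between -0.21 and 0.17, and those of other libraries between -0.335 and 0.372. With 3 libraries per age, these correlations cannot exclude a pairing. With the replicate block, 3 of the 10 genes were called over both weeks (ASNS, MTHFD1L and PSAT1). Of the 22 amino acid response genes 12 fell with the block, where 18 did as reported. The shares of all genes called with the block and with no filter are not given here. The counts in these 2 settings are therefore not read as results about the 10 genes.

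For the second week, SHMT2 changed sign to 0.077 (median-of-ratios) and 0.038 (quantile). ALDH1L2 changed to 0.007 (median-of-ratios), 0.019 (quantile), 0.25 (library weights) and 0.078 (replicate block). ASNS was 0.17 with the replicate block and -0.44 to 0.006 without 1 library. With the block, PSPH was -0.004 over both weeks. For the first step minus the second, PHGDH was -0.074 (quantile), -0.027 (block) and -0.24 to 0.40 without 1 library. PSAT1 was -0.047 (quantile), -0.10 (block) and -0.47 to 0.49 without 1 library. SHMT1 was 0.057 without mitochondrial and the 20 most abundant genes and -0.26 to 0.21 without 1 library. MTHFD2 was -0.09 with the block. MTHFD1L was -0.13 (quantile) and -0.11 to 0.37 without 1 library.

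All genes called in the first week (2031) ranged from 392 without newborn replicate 6 to 3794 with median-of-ratios scaling. Over both weeks (2933) they ranged from 816 without newborn replicate 6 to 6410 with library weights. In the second week (21) they ranged from 0, without day 7 replicate 2 among others, to 3095 with library weights, and for the difference of steps (236) from 3 without day 7 replicate 6 to 1619 with library weights.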
